A study of Homo sapiens with 2 samples.

Results

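The 105 small nucleolar RNA (snoRNA) genes described here were those listed at 1 FPKM or more in at least 1 of 2 RNA-seq libraries of HL60-EIF2S3 cells, out of 943 snoRNA genes in a table of 58302 genes. FPKM is the number of sequenced fragments of a gene scaled to its transcript length and to the library total. By symbol, 50 of the members were SNORD genes (box C/D), 40 were SNORA genes (box H/ACA) and 15 had other symbols, 14 of them Rfam family names and the other SCARNA12. HL60 is a long-used line from a human promyelocytic leukemia, and the cells carried EIF2S3, the gamma subunit of translation initiation factor eIF2, in a retroviral Tet-Off system. In such a system the transgene is on in the absence of doxycycline (DOX) and is shut off by it. The library labelled DOX(-) came from untreated cells and the library labelled DOX(+) from cells given doxycycline, and both carried the transgene. The sources used here do not give the dose, the time or whether the line was 1 clone, and doxycycline itself differed between the libraries as well.

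Box C/D snoRNAs guide 2′-O-methylation of ribosomal and spliceosomal RNA together with the methyltransferase fibrillarin, and are named for the short C box near the 5′ end and D box near the 3′ end. Box H/ACA snoRNAs guide the change of uridine to pseudouridine together with dyskerin, and carry an H box between their hairpins and an ACA triplet near the 3′ end. Most human snoRNAs lie in introns of host genes, many of which encode ribosomal proteins or are noncoding SNHG genes (small nucleolar RNA host genes), and are cut from the excised intron. A few, such as U3, act in cleavage of the ribosomal RNA precursor instead.

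The deepest members and those that differed most between the libraries are shown by their sequences, 5′ to 3′, from GENCODE release 29 (GRCh38). In the box C/D sequences, capitals mark TGATGA within the first 15 bases (C box) and CTGA within the last 15 (D box). SNORD58B (chr18:49491664-49491729, minus strand) and SNORD104 (chr17:64146083-64146152, plus strand), guides of 28S rRNA methylation, were the SNORD members with the highest mean FPKM. SNORD26 (chr11:62855292-62855366, minus strand) is another guide of 28S rRNA methylation. SNORD14B (chr11:17075779-17075868, minus strand) and SNORD14D (chr11:123058909-123058995, minus strand) are copies of U14, which acts on 18S rRNA. SNORD88B lies at chr19:50799032-50799122 on the minus strand.
SNORD58B: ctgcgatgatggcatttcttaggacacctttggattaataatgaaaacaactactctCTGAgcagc
SNORD104: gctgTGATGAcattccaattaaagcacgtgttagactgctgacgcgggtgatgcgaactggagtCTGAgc
SNORD26: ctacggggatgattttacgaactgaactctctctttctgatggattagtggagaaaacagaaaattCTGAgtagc
SNORD14B: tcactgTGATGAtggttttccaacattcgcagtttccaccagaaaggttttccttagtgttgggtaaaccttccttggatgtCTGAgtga
SNORD14D: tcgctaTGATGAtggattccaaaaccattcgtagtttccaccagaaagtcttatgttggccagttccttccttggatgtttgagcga
SNORD88B: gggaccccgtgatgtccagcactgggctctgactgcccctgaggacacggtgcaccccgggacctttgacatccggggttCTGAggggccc

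In the box H/ACA sequences, capitals mark the first ANANNA between 40% and 65% of the length (H box) and ACA at 6 bases from the end. SNORA67 (chr17:7577955-7578091, plus strand) guides a pseudouridine of 18S rRNA and was the SNORA member with the highest mean FPKM. SNORA6 (chr3:39408389-39408539, plus strand) guides a pseudouridine of 28S rRNA and was the SNORA member furthest apart between the libraries.
SNORA67: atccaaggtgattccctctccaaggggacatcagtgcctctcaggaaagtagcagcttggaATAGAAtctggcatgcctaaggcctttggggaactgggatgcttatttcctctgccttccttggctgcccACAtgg
SNORA6: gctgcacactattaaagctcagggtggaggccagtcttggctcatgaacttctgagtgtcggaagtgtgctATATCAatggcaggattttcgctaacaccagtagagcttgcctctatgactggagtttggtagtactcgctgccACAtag

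RF00099, listed under the name of an Rfam family (ENSG00000278527, chr11:62854161-62854285, minus strand), is shown without capitals because its class was not given by its symbol.
RF00099: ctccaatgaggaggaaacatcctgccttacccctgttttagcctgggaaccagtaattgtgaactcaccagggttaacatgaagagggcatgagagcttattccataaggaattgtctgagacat

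Of the 50 SNORD members, 29 (58%) held the C motif TGATGA and 45 (90%) the D motif CTGA in these windows, against 65.1% and 92.4% of the 278 SNORD genes with a sequence. An ANANNA motif was found in 37 of the 40 SNORA members (92.5%) and an ACA triplet in 34 (85%), against 89.8% and 76.2% of 147 SNORA genes. Motifs were read on the transcript strand, and a match describes these letters only. SNORD members had a median length of 84 bases (64 to 237) and SNORA members one of 134 bases (122 to 249).

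The depth, recovered from the FPKM steps, was 16577632 fragments in DOX(-) and 18521255 in DOX(+). For a gene of 100 bases, a single fragment is worth 0.603 FPKM at the DOX(-) depth and 0.540 at that of DOX(+), so the precision for short genes is low. EIF2S3 itself was listed with 132.9 FPKM for DOX(-) and 126.2 for DOX(+), so the labelled difference in the transgene was not seen in this gene's value, and the libraries are named by their labels. Of the promyelocyte markers, CTSG (689.2 and 569.8 FPKM), ELANE (396.4 and 299.4), PRTN3 (177.6 and 144.7) and AZU1 (76.0 and 52.3) were high in both, while MPO, a defining marker, was near 0 (0.274 and 0.469). Erythroid, T cell, B cell and fibroblast markers were at or near 0, the highest being HBA1 at 1.33 and 3.36 FPKM and CD79A at 1.66 and 0.709 FPKM. With 1 library per condition, every value compares these libraries, with no replicate check and no test of the conditions. In such bulk samples, fewer cells of a type and less RNA per cell cannot be told apart.

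Few fragments lay behind each member. All 105 had 1 annotated transcript, and their FPKM values came to whole fragments within 0.02, so fragments are given beside FPKM. A member had a median of 7 fragments over both libraries (range 2 to 98), 64 had under 10 and 4 had 50 or more. The median was 3 fragments in DOX(-) and 4 in DOX(+). A single fragment or none was found for 30 members in DOX(-) and 12 in DOX(+), and 12 members had the same number of fragments in both libraries.

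The FPKM of both libraries chose the members, so their differences are descriptions. Both libraries reached 1 FPKM for 54 members, DOX(-) alone for 15 and DOX(+) alone for 36. A member in either of the last groups had to differ. Just inside the limit were RF01210 (0 FPKM in DOX(-) and 1.04 FPKM in DOX(+)), SNORD124 (0.580 and 1.04) and SNORD15A (0.407 and 1.09). Just outside it were SNORA40B (0.943 and 0.844 FPKM), SNORD43 (0.942 and 0.844) and SNORD42A (0.942 and 0.844). Each of these 6 genes had 3 fragments or fewer in each library. Of the remaining snoRNA genes, 649 were listed at 0 in both libraries and 189 were above 0 and under 1 FPKM.

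**Figure D1:**
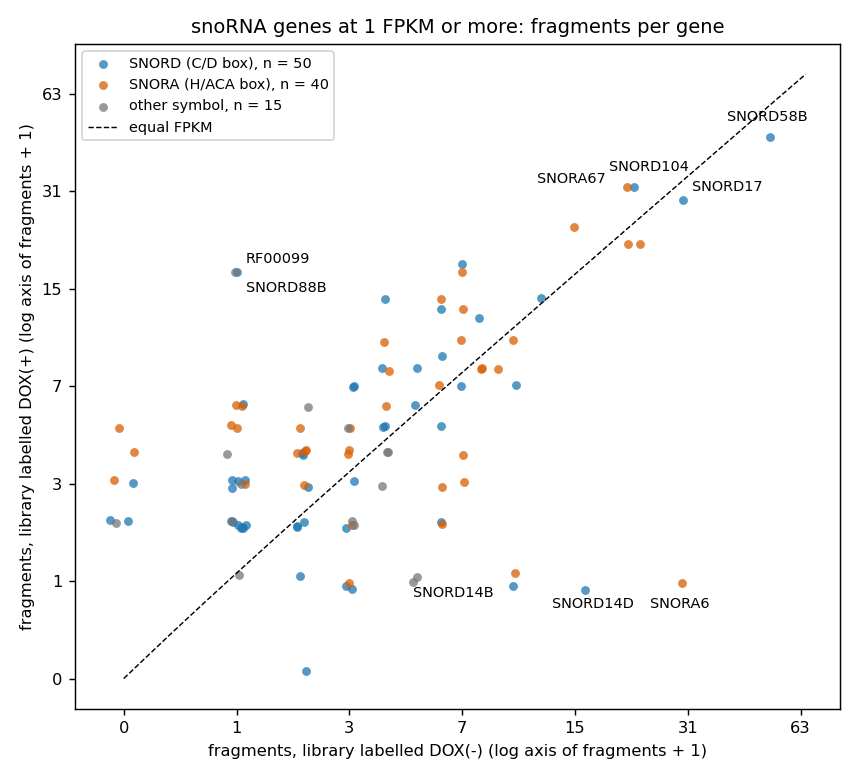
Fragments of each of the 105 members in the library labelled DOX(-) (x axis) and the library labelled DOX(+) (y axis), on log axes of fragments + 1, with points shifted slightly at random so that equal values can be seen. The dashed line marks equal FPKM, and most members lie below 10 fragments in both libraries, with SNORA6, SNORD14D and SNORD14B far below the line and SNORD88B and RF00099 far above it.

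Summed snoRNA abundance was close in the libraries. The 935 snoRNA genes with 1 transcript, a set that no FPKM limit chose, had 726 fragments in DOX(-) and 869 in DOX(+). Scaled to the library totals, their ratio, DOX(-) over DOX(+), was 0.933, with an exact 95% counting interval of 0.845 to 1.03. The 105 members held 565 and 698 of these fragments (ratio 0.904, 0.808 to 1.01). The SNORD members had 271 and 337 fragments (0.898, 0.763 to 1.06), and the SNORA members 256 and 304 (0.941, 0.794 to 1.11). Both classes thus had intervals that included equal abundance.

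On the log2(FPKM + 1) scale, 39 members were above 0 and 66 below, beside 5373 and 6152 of the 11525 genes at 1 FPKM or more. The 12 members with equal fragments are among the 39, since a fragment is worth more FPKM in the shallower DOX(-) library. The median difference was -0.36 over all members, -0.37 over SNORD members and -0.32 over SNORA members, against -0.02 over the 11525 genes at 1 FPKM or more. It was -0.10 over the 54 members at 1 FPKM in both libraries and -0.13 over 435 genes of up to 300 bases with 1 transcript. These short genes include all the members, so they are not a separate background. Over the 294 snoRNA genes above 0 in either library, the median was 0.05, and above 0 for SNORD and SNORA genes as well (0.06 and 0.05). Over the 23 members at 5 FPKM or more in either library it was -0.36. The direction of the median thus depends on leaving out the genes under 1 FPKM, where equal fragments in both libraries also give a value above 0. At least 2-fold higher in DOX(-) were 11 members (10.5%), where 0.833% of all genes at 1 FPKM and 6.9% of the short genes were. At least 2-fold lower were 17 members (16.2%), where 1.2% and 11.0% were. Of the 11 higher members, 10 were under 1 FPKM in DOX(+), and of the 17 lower members, 15 were under 1 FPKM in DOX(-).

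Most of the SNORD members with the highest FPKM had counting intervals that included 1. The exceptions, SNORD14D and SNORD88B, come after these. SNORD58B, inside the ribosomal protein gene RPL17 and overlapped by exons of 6 annotated transcripts, had the highest FPKM of all members, 47.5 in DOX(-) and 37.6 in DOX(+), from 52 and 46 fragments (ratio 1.26, 0.833 to 1.92). Its neighbour SNORD58A had 6.50 and 5.81 FPKM from 7 fragments in each library. SNORD104, in SNHG25, had 19.0 and 24.7 FPKM from 22 and 32 fragments (0.768, 0.425 to 1.36). None of these intervals left out 1. SNORD17, a long box C/D snoRNA in SNX5, had 7.64 and 6.61 FPKM from 30 and 29 fragments (1.16, 0.670 to 2.00). SNORD68, in RPL13, had 8.62 and 8.999 FPKM from 12 and 14 fragments (0.958, 0.405 to 2.23). SNORD87, in SNHG6, had 4.07 and 7.89 FPKM from 6 and 13 fragments (0.516, 0.161 to 1.45). The first pair of these differed by 2 fragments or fewer, and SNORD87 by 7.

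Among the SNORA members of highest FPKM, SNORA6 alone had an interval off 1. SNORA67, in the SENP3-EIF4A1 locus, had 9.25 FPKM in DOX(-) and 12.6 FPKM in DOX(+), from 21 and 32 fragments (0.733, 0.402 to 1.31). SNORA64, in RPS2, had 10.4 and 8.46 FPKM from 23 and 21 fragments (1.22, 0.647 to 2.32). Both guide rRNA pseudouridylation, of 18S and of 28S rRNA. SNORA8 and SNORA18, guides of 28S rRNA, share the host TAF1D. SNORA8 had 9.11 and 8.16 FPKM from 21 fragments in each library, and SNORA18 had 6.85 and 9.82 FPKM from 15 and 24 (0.698, 0.341 to 1.39). TAF1D, a subunit of the RNA polymerase I factor SL1, was itself at 1.87 and 2.63 FPKM. Lower in this order, SNORA24 in SNHG8 had 10 fragments in each library and SNORA65 in RPL12 had 8 in each. SNORA52 in RPLP2 had 9 and 8 fragments, SNORA22 in CCT6P1 had 7 and 13, and SNORA58B in UBAP2L had 6 and 14. All 5 of their intervals included 1. The 10 deepest members held 41.2% of the members' fragments in DOX(-) and 34.1% in DOX(+).

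The counting interval lay off 1 for 6 members, 4 above and 2 below. Among the 435 short genes 3.91% lay above 1 and 6.44% below, and among all 2422 genes with 1 transcript 14.5% and 16.1% did. Both sets include the members. SNORA6 had 11.98 FPKM in DOX(-) and 0.358 FPKM in DOX(+), from 30 fragments and 1 fragment (ratio 33.5, 5.57 to 1367). SNORD14D had 11.1 and 0.621 FPKM, from 16 fragments and 1 (17.9, 2.78 to 749.6). SNORD14B had 6.70 and 0.600 FPKM, from 10 fragments and 1 (11.2, 1.59 to 485). These 3 members thus had a single fragment in DOX(+). Lower in DOX(-) were SNORD88B, with 0.663 and 10.1 FPKM, and RF00099, with 0.482 and 7.34 FPKM. Each of the last pair had 1 fragment in DOX(-) and 17 in DOX(+) (0.0657, 0.00157 to 0.419).

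The host genes of the 5 members named differed far less. RPSA, the host of SNORA6, had 97.8 FPKM in DOX(-) and 82.9 FPKM in DOX(+), and RPS13, the host of SNORD14B, had 32.5 and 28.6. Both encode ribosomal proteins. HSPA8, a heat shock protein gene that holds SNORD14D, had 258.4 and 325.0 FPKM. C19orf48, which holds SNORD88B, had 6.35 and 5.01 FPKM, and the noncoding SNHG1, which holds RF00099, had 1.61 and 2.23 FPKM. In HSPA8 and C19orf48 the host therefore lay on the other side of 1 from its snoRNA. Of the 5 members named, all except SNORA6 shared their host with other members. The others in SNHG1, given with that host below, were lower in DOX(-), as RF00099 was. In the remaining hosts the other members had few fragments. SNORD14E, also in HSPA8, had 6 and 9 fragments, SNORD14A, also in RPS13, had 3 and 3, and SNORD88A, also in C19orf48, had 1 and 3. The interval of SNORD14E (0.745, 0.218 to 2.34) lay wholly below that of SNORD14D, so its counts did not share that difference. The counts of SNORD14A and SNORD88A are too low to show whether they share the difference of their neighbours.

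All 6 members off 1 lie wholly inside an annotated exon of another transcript on the same strand, of the retained intron type for 5 of them and of the processed transcript type for SNORA6. An exon of a protein-coding transcript covers SNORD14D as well, and an exon of the processed transcript type also covers SNORD88B. Of all 105 members, 33 (31.4%) are covered in this way and 47 overlap such an exon at all. Of the 41 members with 10 or more fragments, which include these 6, 21 are covered and 26 overlap. Among the 58 members that overlap no such exon, none had an interval off 1. The part of host transcript reads in these 6 values was not tested, and 27 covered members had an interval that included 1. SNORD88B shares 91.2% of its letters with SNORD88A, and SNORD14B 91.1% with RF00016, another snoRNA gene, so their reads may have been divided between copies and these values are uncertain. The 4 SNORD14 genes among the members share 75.6% to 85.7% of their letters with each other.

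**Figure D2:**
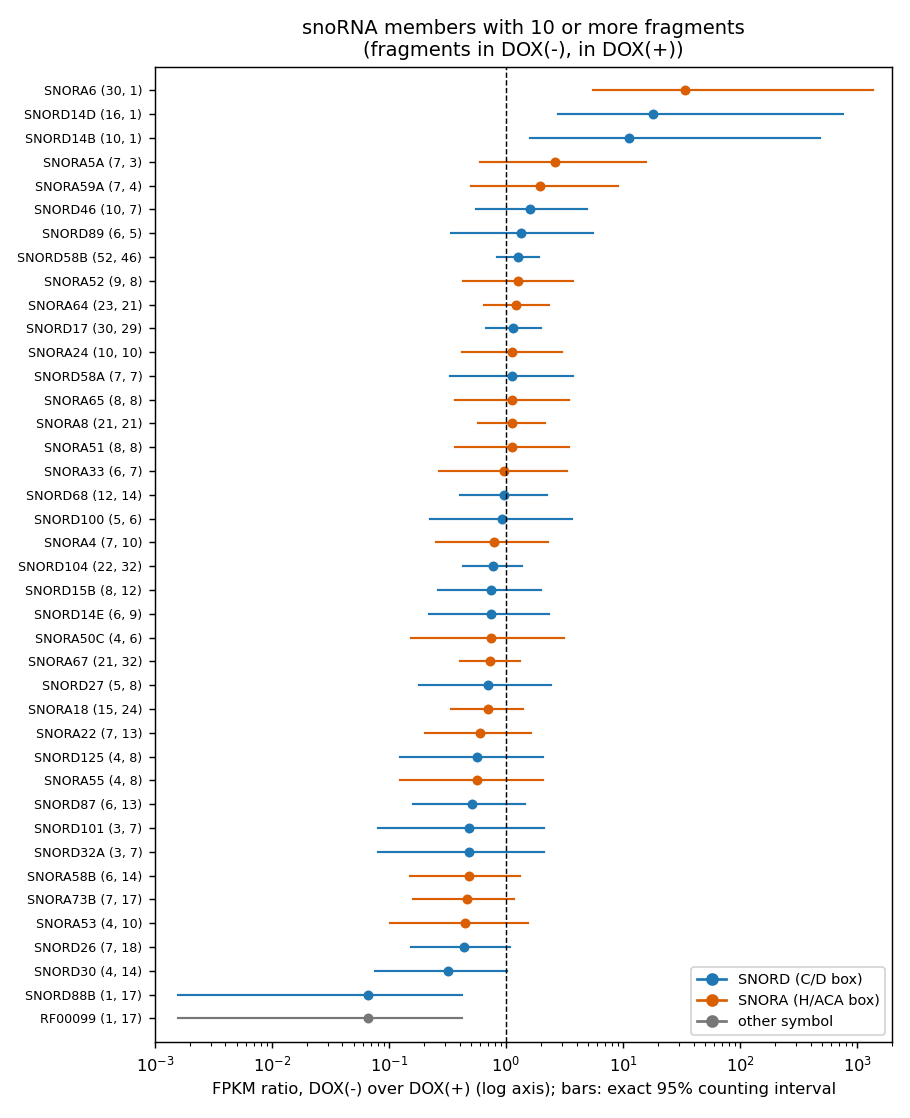
FPKM ratio, DOX(-) over DOX(+), on a log axis for 40 of the 41 members with 10 or more fragments over both libraries, with bars for the exact 95% counting interval and the fragments in DOX(-) and DOX(+) beside each name. The bars of 35 members cross the dashed line of equal FPKM, and the 3 members at the top and the 2 at the bottom do not.

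A further 4 members were listed at 0 in DOX(-) with at least 3 fragments in DOX(+). SNORA78, in SNHG9, had 0 and 5 fragments, which set against a floor of 3 fragments is 1.49-fold lower. This is not a lower bound, because its counting interval reached 1.22. Its host SNHG9 had 0.485 FPKM in DOX(-), against 2.53 FPKM in DOX(+). SNORA22C, in CCT6P3, had 0 and 4 fragments, and SNORD62B in PRRC2B and SNORA2C in KANSL2 each had 0 and 3. At this depth none of the 4 was detectably different.

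Grouped by host, members in ribosomal protein genes were higher in the library labelled DOX(-) and members in noncoding genes were lower. The host was taken as the same-strand gene that contains the snoRNA, and 103 members had one, in 78 genes. The host classes were formed with these values known. The 29 members in 19 ribosomal protein genes, counting 1 ribosomal protein pseudogene (RPS18P9), had 233 fragments in DOX(-) and 199 in DOX(+) (ratio 1.31, 1.08 to 1.59). Without the 3 of them whose own interval lay off 1 the ratio was 1.04 (0.848 to 1.28), and without SNORA6 alone it was 1.15 (0.937 to 1.40), so the higher sum rested on those members. The 53 members in other coding genes had 240 and 321 fragments (0.835, 0.704 to 0.990), an interval that reached 1.04 without SNORD88B and 1.00 and 1.02 under scaling by the median of ratios and by the trimmed mean. The 21 members in noncoding genes or other pseudogenes had 85 and 173 fragments (0.549, 0.418 to 0.716). Their sum was lower in DOX(-) in 13 of 16 noncoding hosts, beside 49 of all 78 hosts (62.8%). A host whose only member reached 1 FPKM in 1 library alone had to fall on that side, as SNHG7 and SNHG9 did for DOX(+). No direction is read from these counts.

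The lower sum in noncoding hosts remained below 1 without its member off 1 (0.602, 0.456 to 0.789) and without the whole of SNHG1 (0.655, 0.478 to 0.891). The FPKM values compared here also chose these members, and more of them reached 1 FPKM in DOX(+) alone than in DOX(-) alone. Their sums and intervals are therefore descriptions, and leaving members out cannot test the difference. All 225 snoRNA genes in noncoding hosts had 128 fragments in DOX(-) and 215 in DOX(+) (0.665, 0.530 to 0.832). The 21 members are among them and held 85 and 173 of these fragments, so this sum is not separate support. These counts leave nearly equal fragments in the 2 libraries to the genes outside the members, so the lower sum lay in the members. Over all host classes, the 830 snoRNA genes under 1 FPKM had 161 fragments in DOX(-) and 171 in DOX(+) (1.05, 0.843 to 1.31). Over all 63 snoRNA genes in ribosomal protein genes there were 261 and 230 fragments (1.27, 1.06 to 1.52), and 1.04 (0.857 to 1.26) without the 3 members off 1. Over all 281 in other coding genes there were 326 and 411 (0.886, 0.764 to 1.03), and these wider sets likewise include the members.

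**Figure D3:**
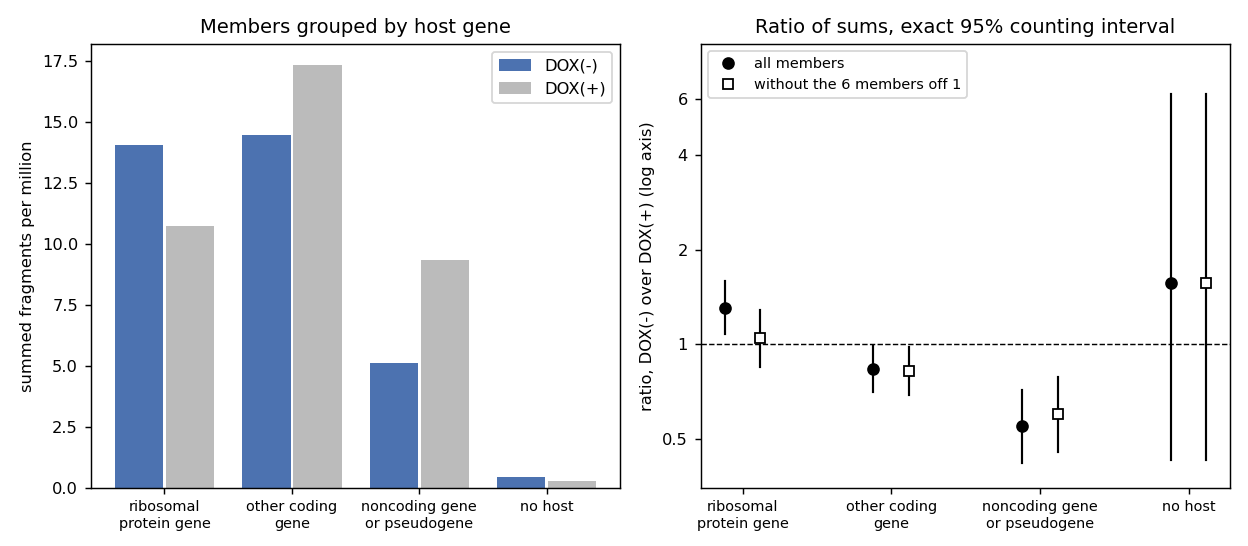
Left, fragments scaled to the library total and summed over members by class of host gene, with bars for the library labelled DOX(-) and the library labelled DOX(+); right, the ratio of these sums, DOX(-) over DOX(+), on a log axis with exact 95% counting intervals. Members in noncoding hosts lie below 1 with and without the 6 members off 1 (0.549 and 0.602), while those in ribosomal protein genes lie at 1.31 and at 1.04 without them.

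The hosts, which are by choice the genes that hold a member, were also measured themselves. Since 47 members overlap an exon on the same strand, host and snoRNA values are not separate measurements. Of the 19 ribosomal protein hosts, 17 were higher in DOX(-), with a median log2(FPKM + 1) difference of 0.23. Of 14 noncoding hosts at 1 FPKM or more, 11 were lower, with a median of -0.26. Over all 11525 genes at 1 FPKM or more, 5373 were higher and 6152 lower. The 42 other coding hosts had a median of -0.03 and all 75 hosts one of -0.00, which turned to 0.02 and 0.03 under those scalings. None of the ribosomal protein hosts differed 2-fold. Over 36 hosts whose members had 10 or more fragments, the log2 ratio of the host and that of its snoRNAs had a Pearson r of 0.237 and a Spearman rho of 0.252. This is a description across hosts of the same pair of libraries, and genes are not independent replicates.

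**Figure D4:**
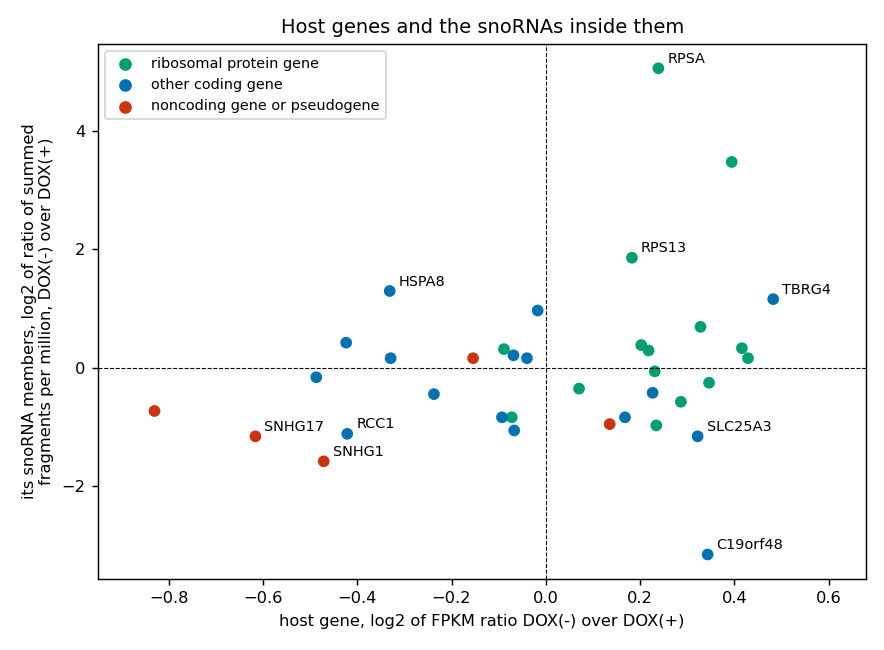
Log2 ratio of FPKM, DOX(-) over DOX(+), of 36 host genes (x axis) against the log2 ratio of the summed fragments, scaled to the library total, of their snoRNA members (y axis), coloured by class of host. The hosts span -0.83 to 0.48 and their snoRNAs -3.16 to 5.07, and most ribosomal protein hosts lie right of 0.

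SNHG1, a noncoding gene whose spliced RNA is degraded by nonsense-mediated decay while its introns give box C/D snoRNAs, was 1 of 3 hosts that held 3 or more members. Its 4 members were all lower in DOX(-). SNORD26 had 5.63 FPKM in DOX(-) and 13.0 FPKM in DOX(+), from 7 and 18 fragments (0.434, 0.153 to 1.09). SNORD30, a 28S guide, had 3.45 and 10.8 FPKM, from 4 and 14 fragments (0.319, 0.0765 to 1.02), and SNORD27, an 18S guide, had 4.19 and 5.999 FPKM, from 5 and 8. With RF00099 they summed to 17 and 57 fragments (0.333, 0.182 to 0.581), and without it to 16 and 40 (0.447, 0.234 to 0.816). SNORD22, SNORD25 and SNORD28, the other snoRNA genes there, had 1 fragment in each library. The name table pairs the identifier of RF00099 with SNORD22 too, so which of these genes that name belongs to is uncertain. The RPS12 members SNORA33 (6 and 7 fragments), SNORD101 (3 and 7) and SNORD100 (5 and 6) summed to 14 and 20 (0.782, 0.365 to 1.63), with RPS12 at 265.9 and 253.2 FPKM. The members in GNL3, which encodes the nucleolar protein nucleostemin, were RF00569 (4 and 4 fragments), SNORD19 (2 and 2) and SNORD69 (2 and 2), with GNL3 at 22.3 and 22.9 FPKM.

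Several snoRNAs looked up by symbol, U3 among them, were under the limit. The U3 genes SNORD3A and SNORD3B-1 were at 0.106 and 0.253 FPKM in DOX(-), and at 0.667 and 0.860 FPKM in DOX(+). They have more than 1 annotated transcript, so their fragments could not be counted. Of further U3 genes, SNORD3B-2 had 0.098 FPKM in DOX(-) and 0.044 in DOX(+), and SNORD3C 0 and 0.106. Of the genes named SNORD3D, 1 had 0.556 and 0.747 FPKM and the other 0 in both libraries. The U3 genes thus did not all lie on the same side. SNORD118 (U8) had 1 fragment in DOX(-) and none in DOX(+), and SNORD13 (U13) none in DOX(-) and 1 in DOX(+). SNORA73B, a copy of U17 in RCC1, was a member, with 2.07 and 4.499 FPKM from 7 and 17 fragments (0.460, 0.161 to 1.17), whereas SNORA73A, in the same host, had 1 fragment in each library. SNORD10, SNORA63 and SNORA7A also had 1 fragment in each, and SNORA74A had 2 and 1. None of these values separates the libraries at this depth. The brain-associated clusters SNORD115 (48 genes), SNORD113 (9) and SNORD114 (30) were listed at 0 throughout, while 14 of 30 SNORD116 genes were above 0, with 12 fragments in DOX(-) and 7 in DOX(+).

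Of 52 tested genes for proteins of snoRNA particles and of their processing, none was 1.5-fold higher in DOX(-) on the log2(FPKM + 1) scale and 3 were at least 1.5-fold lower, where 3.11% and 4.06% of all genes were. The largest difference was in SNU13, which binds the k-turn of box C/D snoRNAs, with 8.10 FPKM in DOX(-) against 19.7 in DOX(+) (log2 difference -1.19). The others were NCBP2, the smaller subunit of the nuclear cap-binding complex (1.87 and 3.71 FPKM, -0.72), and UPF3B, a factor of nonsense-mediated decay (2.67 and 4.71 FPKM, -0.64). Of the other box C/D core proteins, FBL (fibrillarin) had 117.4 and 102.5 FPKM, NOP56 had 19.4 and 24.3, and NOP58 had 15.6 and 23.5. The median of the 4 box C/D core genes was -0.44 and that of the 4 box H/ACA core genes -0.06. The box H/ACA core genes were closer, with DKC1 (dyskerin) at 17.3 and 20.2 FPKM, NHP2 at 32.4 and 31.2, NOP10 at 83.3 and 91.9 and GAR1 at 32.2 and 31.6. The medians of the remaining lists were 0.06 for 13 assembly factors, -0.13 for 14 processing and decay factors, -0.07 for 10 partners of U3 and -0.14 for 7 factors of nonsense-mediated decay. All 7 of the last list were below 0, by 0.02 to 0.64, against the median of -0.02 over all genes, where 6152 of 11525 were below 0.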

How the data were processed

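Total RNA of HL60-EIF2S3 cells was sequenced, 1 library per condition, after library construction with an NEB Ultra kit, per the labels' protocols. The sources used here do not give RNA selection, strand handling or read length. The deposited table holds FPKM values that the authors computed per gene in both libraries, as the file headers state. CASAVA 1.8, HISAT2 2.1.0, StringTie 1.3.4b, edgeR and 2 names of the same build (GRCh38, hg38) are listed in the submitters' processing notes. Short RNAs can be lost or taken for host transcripts in such libraries, which limits what an FPKM of a snoRNA gene measures.

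From these values, the members were the snoRNA genes that reached 1 FPKM in at least 1 library. All 105 were found in GENCODE release 29 by identifier and locus. The value of 1 fragment was recovered from steps in the FPKM of genes with 1 transcript, of which 99.5% in DOX(-) and 99.6% in DOX(+) were whole within 0.02 up to 100 fragments. Ratios have exact conditional 95% intervals (Clopper-Pearson), which cover counting error alone. With 1 library per condition, they hold no variation between libraries. The sources name no molecular identifiers, so fragments may not be independent molecules, and the intervals may then be too narrow even for counting error. Differences used log2(FPKM + 1), with 2-fold for single genes and 1.5-fold for lists. The pseudocount pulls ratios of low genes towards 0. No p-value was made. Python 3.11.15, pandas 2.3.3, numpy 2.4.6 and scipy 1.17.1 were used, and the recovery of fragments and intervals was tested on simulated data.

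Named genes were the members with an interval off 1 (1 of these 6 is not reported here), those at 0 in 1 library with 3 or more fragments in the other, the 10 SNORD and 10 SNORA members of highest mean FPKM, 10 fixed symbols, members of hosts with 3 or more, the hosts of named members, the 8 core proteins and other listed genes past 1.5-fold. Second snoRNAs of a host, SNORD3B-1 and the further U3 genes, SNORD116, SNORD22, SNORD25 and SNORD28 were added after their values were seen. Members and lists were chosen with earlier results of these data known. Alternatives covered the pseudocount, the filter, the scaling, exon overlap, fragments and the confidence level.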

Additional observations from a re-analysis of the deposited data

How the results depend on the processing

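No paired analysis was possible because each condition had 1 library and the labels give no replicate numbers. Of 54 alternatives, 11 moved the value, and the sign of a median turned in 7, 5 of them in medians whose order-statistic interval over genes included 0. The cause was not tested unless fewer genes entered. With no filter (294 snoRNA genes above 0) the median log2 difference was 0.0486 over all, 0.0645 over SNORD and 0.0474 over SNORA genes. A pseudocount of 0.1 FPKM gave 30 members at least 2-fold lower, a SNORD median of -0.46 and 5 lower genes of snoRNA particles and processing. A filter of 5 FPKM, which leaves 23 members, gave 3 higher and 4 lower. The 41 members with 10 or more fragments gave 4 higher and 4 lower. The 58 members free of exon overlap gave 3 higher and 9 lower, with 0 intervals above 1 and 0 below. The median of the hosts turned to 0.07 at 5 FPKM and to 0.02 and 0.03 under the scalings, and that of SNORA members to 0.04 at 10 or more fragments. The factors of DOX(-) over DOX(+) were -0.02 (median of ratios) and -0.04 (trimmed mean) on the log2 scale, and dividing by them raises the differences. The sum without the 6 members off 1 (ratio 0.841) was chosen after seeing the data; it drops members by their own difference, so no direction is read from it. Depth limits most members: 64 of 105 had under 10 fragments.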
